A study of Mus musculus with 12 samples.

Results

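Elastic fibres and microfibrils were followed through the 3 zones of the embryonic mouse tibia by the genes of 10 of their proteins: elastin (Eln), fibrillin-1 and fibrillin-2 (Fbn1, Fbn2), the microfibril-associated proteins Mfap2, Mfap4 and Mfap5, fibulin-1, fibulin-2 and fibulin-5 (Fbln1, Fbln2, Fbln5) and emilin-1 (Emilin1). The genes were chosen by family, with earlier results of these data known. The paper lists Eln, Fbn1, Fbn2, Mfap2, Mfap4, Mfap5, Fbln1, Fbln2 and Emilin1 among matrix genes enriched in zone I over zone II. A probe set was taken as a gene's own where the array annotation gave it that symbol and no other. This found 18 probe sets for 9 of the 10 genes, and all 9 are among the 11847 genes with a probe set of their own above the limit on signal given next. No probe set carried the symbol Fbn1 in the annotation used here, so no value is given for fibrillin-1. All 9 remaining genes passed the lower limit set for every probe set, a zone mean of 50 or more in any zone. For each gene the probe set with the highest mean log2 signal stands for the gene, and 3 of the 18 probe sets lay below the limit.

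Zones I, II and III were cut by hand from tibiae of CD1 mice, untreated, at embryonic day 15.5, and every zone was hybridized to 4 Affymetrix MOE 430 2.0 arrays, 12 in all. Zone I, at the end of the bone, holds cartilage at rest or dividing. The cells of zone II are mainly those about to enlarge or already enlarged, the prehypertrophic and hypertrophic chondrocytes, and zone III runs from late hypertrophic cartilage into mineral. The study used 4 litters and pooled the segments of each zone within a litter. An array therefore stands for the pooled RNA of several embryos, and n = 4 in each zone counts such pools. The zones share litters, but the main fit did not pair them, as no label says which arrays come from the same litter. The segments were whole slices of the bone, and fewer cells of a type and less RNA per cell cannot be told apart in them.

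An elastic fibre has a core of elastin, which cells secrete as a soluble monomer, and a scaffold of microfibrils built from fibrillins. Fibulins and microfibril-associated proteins bind to this scaffold and help place the elastin on it, lysyl oxidases cross-link the elastin into an insoluble network, and latent TGF-beta binding proteins store growth factor on the microfibrils. In the skeleton fibrillin microfibrils are known from the perichondrium and the cartilage matrix, while elastin is typical of arteries, skin, lung, ligaments and elastic cartilage.

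The deposited signals had been scaled to 1 trimmed mean on all 12 arrays, and the median signal ran from 32.4 to 43.3. The segments carried the genes that mark their cells. The summed signal of 10 chondrocyte markers such as Sox9 and Col2a1 was 23949 to 29741 for zone I, 33287 to 36060 for zone II and 11648 to 14344 for zone III, and that of 5 markers of hypertrophic chondrocytes such as Col10a1 was 459 to 635 for zone I, 10474 to 12577 for zone II and 8796 to 10486 for zone III. For the Gapdh control probes the ratio of 3' to 5' signal, a sign of RNA quality, was 1.98 to 2.28 in zone III, against 1.25 to 1.76 in zones I and II. For the actin control probes it ran the other way, at 1.70 to 2.02 in zone III, against 2.09 to 3.23 in zones I and II. The part of these ratios in the differences was not tested.

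The 9 measured genes all had their highest mean signal in zone I. From zone I to zone II all 9 fell (limma, Benjamini-Hochberg adjusted p under 0.05), where 22.2% of 22255 probe sets tested were called lower and 37.4% in either direction. The median of the 9 log2 differences was −1.82, against −0.07 over all probe sets tested. Mfap4 and Mfap5 reached the limit of 50 in zone I only, so the limit kept them through the zone in which they were high. Of the 7 genes with a mean of 50 or more in every zone, all 7 fell at this step. Between zones II and III, 3 of the 9 rose (Eln, Fbn2 and Fbln1), 1 fell (Fbln2) and 5 did not pass the test, which is close to the background of 28.5% of probe sets called higher, 20.9% lower and 49.5% in either direction. In zone III 8 of the 9, and 6 of the 7 with a mean of 50 or more in every zone, were lower than in zone I, and Fbln1 did not pass, where 19.0% of probe sets were called lower and 40.0% in either direction. None of the 9 was called higher in zone II or in zone III than in zone I. The background depends on the scaling: centring on ribosomal protein genes called 6.71% higher and 35.1% lower at the first step and 50.2% higher and 8.37% lower at the second, while centring on the array median called 24.3% and 15.4%, then 20.3% and 32.0%. The median difference of zones III and I was −1.07, against 0.01 over all probe sets tested.

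**Figure D1:**
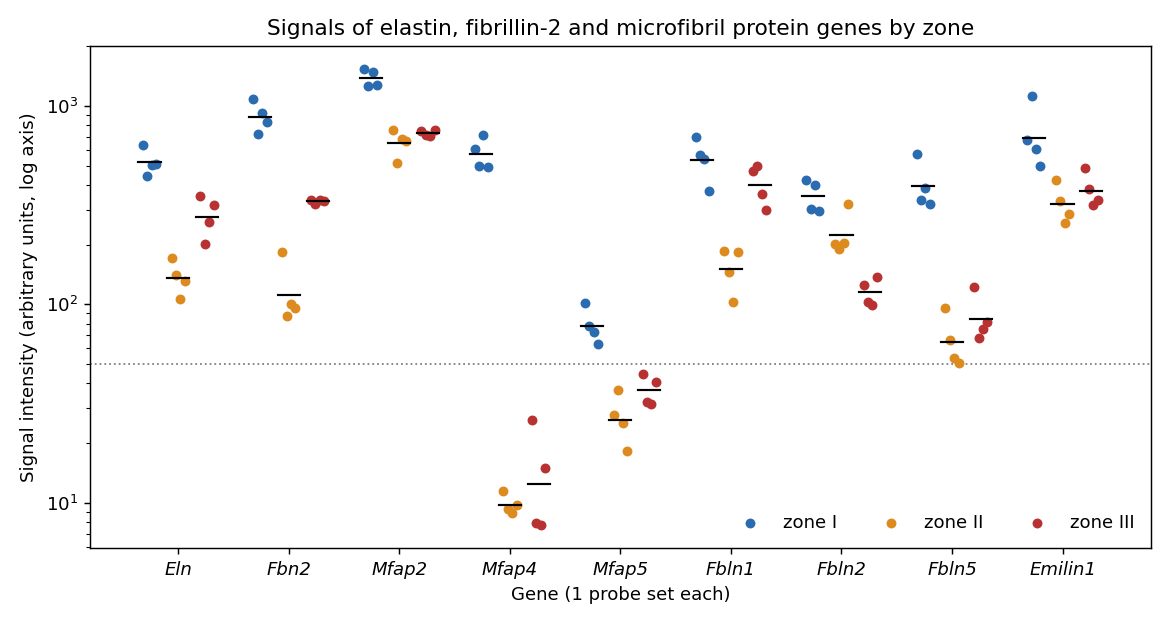
Signal intensity (vertical log axis) of the 9 measured genes (horizontal axis, 1 probe set per gene). Dots are single arrays, 4 per zone, coloured blue for I, orange for II and red for III, short lines are geometric means, and the dotted line marks a signal of 50. Zone I lies highest for each gene, Eln, Fbn2 and Fbln1 lie higher in zone III than in zone II, and Mfap4 and Mfap5 lie below 50 in zones II and III.

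Elastin is the protein that gives the fibre its recoil. Eln (probe set 1420855_at) had signals of 638, 444, 505 and 508 on arrays A to D of zone I, 171, 141, 107 and 131 in zone II, and 352, 202, 259 and 318 in zone III. No pair of zones overlapped, with zone II lowest, zone III between and zone I highest. Its mean was 524 ± 82.0 for zone I, 137 ± 26.3 for zone II and 283 ± 65.9 for zone III (SD, n = 4 arrays). The zone II signal was 3.83-fold lower than that of zone I (log2 difference −1.94 ± 0.19 SE, limma adjusted p = 1.08e-05), and the zone III signal was 2.04-fold higher than that of zone II (1.03 ± 0.19, adjusted p = 7.58e-04) and 1.87-fold lower than that of zone I (−0.91 ± 0.19, limma adjusted p = 0.00251). A second probe set of Eln stayed under 10 on every array and was not tested.

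Fibrillin-2 is the fibrillin most typical of embryonic microfibrils. Fbn2 (1454830_at) read 1087, 722, 922 and 829 in zone I, 183, 86.9, 100.4 and 95.5 in zone II, and 337, 320.1, 335 and 329.9 in zone III. The 4 arrays of zone III lay within a narrow band, and no pair of zones overlapped. The signal in zone II was 7.92-fold lower than in zone I (log2 difference −2.99 ± 0.21 SE, limma adjusted p = 6.42e-07), and in zone III it was 2.97-fold higher than in zone II (1.57 ± 0.21, adjusted p = 5.08e-05) and 2.66-fold lower than in zone I (−1.41 ± 0.21, limma adjusted p = 1.71e-04). The second probe set moved in the same directions at every step, by −4.09 ± 0.37 from zone I to II and by 2.42 ± 0.37 from zone II to III.

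Mfap2 and Mfap5 encode MAGP-1 and MAGP-2, a pair of small glycoproteins bound to fibrillin microfibrils. Mfap2 (1417359_at) read 1538, 1261, 1484 and 1279 in zone I, 752, 517, 679 and 663 in zone II, and 747, 710.3, 708 and 759 in zone III. Zone I stood clear of both other zones, which overlapped. The signal fell 2.14-fold from zone I to zone II (log2 difference −1.10 ± 0.13 SE, limma adjusted p = 3.51e-05) and was 1.90-fold lower in zone III than in zone I (−0.92 ± 0.13, adjusted p = 9.90e-05). Zone III minus zone II gave 0.18 ± 0.13 (95% confidence interval −0.10 to 0.45, limma adjusted p = 0.28), and −0.07 with the arrays centred on their median. The other probe set of Mfap2 went against this: it was higher in zone II than in zone I (0.47 ± 0.13, limma adjusted p = 0.0114), with 290 to 370.5 on the arrays of zone II and 216 to 245 on those of zone I, and gave 0.25 ± 0.13 between zones III and I (adjusted p = 0.14).

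Mfap5 (1449082_at) had a weaker signal, of 102, 77.8, 72.3 and 63.2 in zone I, 27.8, 37.0, 25.3 and 18.2 in zone II, and 44.8, 32.3, 31.4 and 40.6 in zone III. Zones II and III lay below 50 on every array and overlapped each other, and both lay below zone I. The log2 difference was −1.56 ± 0.22 SE for zone II minus zone I (limma adjusted p = 1.37e-04) and −1.07 ± 0.22 for zone III minus zone I (adjusted p = 0.00169), and with 16 added to every signal, since the dimmer zones lay below the limit, −1.14 and −0.82. Zone III minus zone II was 0.49 ± 0.22 (95% confidence interval 0.02 to 0.96) and did not pass after adjustment (limma adjusted p = 0.0793), while a fit with hybridization time as a block gave 0.56 (adjusted p = 0.0369) and the fit without zone II array B gave 0.65 (adjusted p = 0.0215). The second probe set, with overlapping arrays, fell by 1.79 ± 0.56 from zone I to zone II (limma adjusted p = 0.0243) and gave −0.86 ± 0.56 between zones III and I (adjusted p = 0.25).

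Mfap4, a fibrinogen-related protein that binds elastin and fibrillin, showed the steepest fall of the 9. Its only probe set (1424010_at) read 605, 496, 709 and 494 in zone I, 11.4, 9.31, 8.89 and 9.70 in zone II, and 26.2, 7.88, 7.70 and 15.0 in zone III. It stood far above 50 in zone I and far below it on all 8 arrays of the other zones, which overlapped each other. The log2 difference was −5.86 ± 0.32 SE for zone II minus zone I (limma adjusted p = 9.84e-08) and −5.52 ± 0.32 for zone III minus zone I (adjusted p = 7.28e-08). Because a fold against so dim a signal depends on the background, the differences were also taken with 16 added to every signal, which gave −4.50 and −4.32. Zone III minus zone II gave 0.34 ± 0.32 (limma adjusted p = 0.41), and −0.01 without zone III array A.

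**Figure D2:**
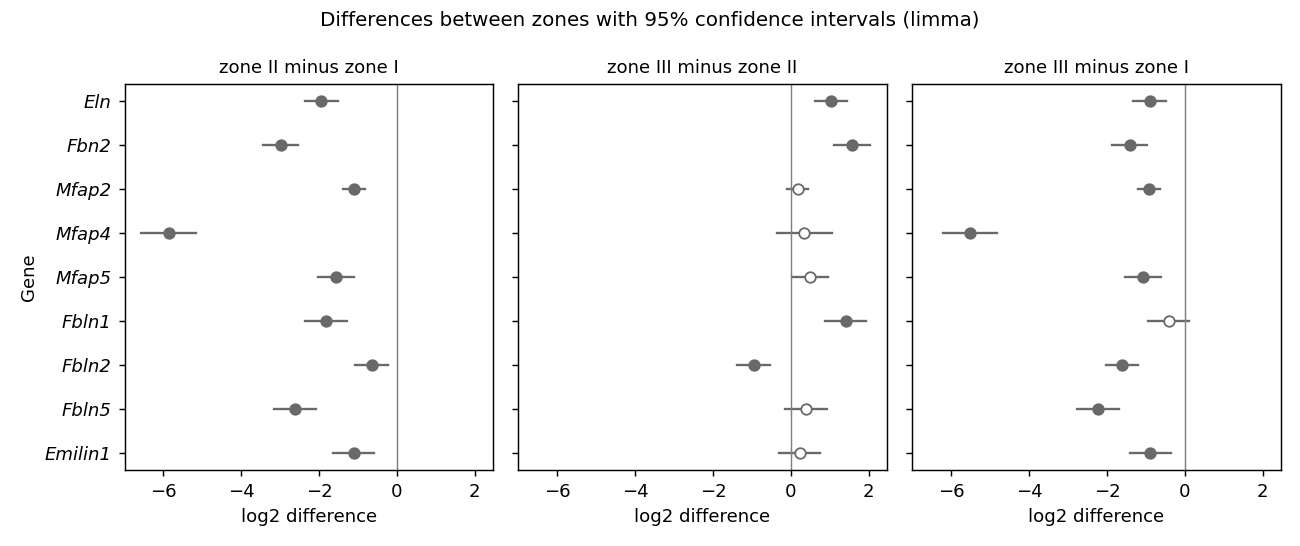
Log2 differences of the 9 genes (rows) in 3 panels, II minus I, then III minus II, then III minus I, with 95% confidence intervals from limma, filled where the adjusted p is under 0.05 and open where it is not. All 9 points of the first panel lie left of 0, 3 filled points of the second lie right of 0 and 1 left, and in the third the open point left of 0 is Fbln1.

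The 3 fibulins, secreted proteins with repeated calcium-binding EGF-like modules, all fell from zone I to zone II. Fbln5, the fibulin needed for elastic fibre assembly in skin, lung and vessels, had the steepest fall of the 3. Fbln1, found in elastic fibres and basement membranes, rose again in zone III. Fbln2, a ligand of fibrillin and of basement membrane proteins, went on falling. Their promoter windows, from 250 bases before to 50 after a start site in RefSeq (GRCm38.p6), are shown since Fbln1 and Fbln2 were called in opposite directions between zones II and III and Fbln5 is their relative tied most closely to elastic fibres. Capitals mark GC boxes, the letters GGGCGG or their complement CCGCCC on the strand printed.
Fbln1, chr15:85205758-85206057, plus strand: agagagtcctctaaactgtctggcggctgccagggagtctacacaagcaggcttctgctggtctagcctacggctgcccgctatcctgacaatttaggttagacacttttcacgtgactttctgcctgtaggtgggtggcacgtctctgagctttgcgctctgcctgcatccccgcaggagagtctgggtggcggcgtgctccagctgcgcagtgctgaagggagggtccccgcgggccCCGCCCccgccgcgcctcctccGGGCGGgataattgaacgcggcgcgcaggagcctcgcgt
Fbln2, chr6:91212514-91212813, plus strand: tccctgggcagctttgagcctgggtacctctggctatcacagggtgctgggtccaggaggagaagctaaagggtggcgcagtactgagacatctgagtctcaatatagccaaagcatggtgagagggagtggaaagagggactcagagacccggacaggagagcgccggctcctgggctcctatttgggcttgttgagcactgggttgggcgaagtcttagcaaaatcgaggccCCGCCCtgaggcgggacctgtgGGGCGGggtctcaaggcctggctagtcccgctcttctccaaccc
Fbln5, chr12:101819070-101819369, minus strand: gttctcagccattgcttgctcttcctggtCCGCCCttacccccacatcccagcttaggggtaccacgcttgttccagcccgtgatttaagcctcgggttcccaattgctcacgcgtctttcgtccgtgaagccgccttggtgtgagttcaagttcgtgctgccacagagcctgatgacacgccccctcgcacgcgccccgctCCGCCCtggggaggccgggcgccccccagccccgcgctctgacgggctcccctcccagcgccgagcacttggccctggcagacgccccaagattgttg

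Each of the 3 windows holds 2 GC boxes, counted on both strands. The other 5 motifs searched on both strands were the TATA box (TATAAA), the AP-1 site (TGANTCA), the TEAD site (CATTCC), the E-box (CACGTG) and the SMAD site (CAGACA). The printed Fbln1 window holds CACGTG and CAGACA once each, and the printed windows of Fbln2 and Fbln5 hold none of the 5. CACGTG is in 7.15% of all windows. CAGACA is in 21.0% of all windows and in 5 of the 9 found for these genes, the second window of Fbln5 among them. Those 5 windows belong to 4 of 6 genes, since the 2 windows of Fbln1 overlap and both hold it. Fbln1 and Fbln5 each have a second window in RefSeq, without a GC box, and the window with more GC boxes is printed. RefSeq windows were found for 6 of the 10 genes, 9 windows in all, and 5 of the 9 windows held a GC box, as 35.7% of the 32851 windows of the table do. The letters TATAAA or their complement TTTATA were in none of the 9 windows and in 13.6% of all. GC content of the printed windows, chosen by GC boxes for Fbln1 and Fbln5, was 64.0% for Fbln1, 60.3% for Fbln2 and 65.7% for Fbln5. The median of all windows was 52.7%. Matches of letters are a description of these windows.

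Fbln5 (1416164_at) read 572, 336, 387 and 322 in zone I, 95.4, 66.4, 53.7 and 50.8 in zone II, and 122, 67.6, 74.9 and 81.9 in zone III. Zone I stood clear of zones II and III, which overlapped. The signal was 6.10-fold lower in zone II than in zone I (log2 difference −2.61 ± 0.25 SE, limma adjusted p = 7.59e-06) and 4.67-fold lower in zone III than in zone I (−2.22 ± 0.25, adjusted p = 1.83e-05). Zone III minus zone II gave 0.39 ± 0.25 (95% confidence interval −0.15 to 0.93, limma adjusted p = 0.22), and 0.78 (adjusted p = 0.00917) after centring on ribosomal protein genes. Whether this step differed between Fbln5 and Fbln1 was not tested. The second probe set stayed below 25 on every array and was not tested.

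Fbln1 (1451119_a_at) read 697, 566, 541 and 372 in zone I, 186, 146, 102 and 184 in zone II, and 469, 500.0, 359 and 297 in zone III. The arrays of zones I and III overlapped, and those of zone II lay below both. The signal fell 3.54-fold from zone I to zone II (log2 difference −1.82 ± 0.24 SE, limma adjusted p = 1.05e-04) and was 2.65-fold higher in zone III than in zone II (1.41 ± 0.24, adjusted p = 4.09e-04). Zone III minus zone I was −0.42 ± 0.24 (95% confidence interval −0.94 to 0.11, limma adjusted p = 0.20). Another probe set gave −1.92 ± 0.23 and 1.47 ± 0.23 for the same 2 steps, and the remaining probe set, near 50 in every zone, gave −0.05 ± 0.32 and 0.41 ± 0.32 and passed at neither. With the median of the 3 probe sets both calls were lost, at −0.61 (adjusted p = 0.11) and 0.41 (adjusted p = 0.25).

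Fbln2 (1423407_a_at) read 425, 301, 400.5 and 296 in zone I, 202, 190.5, 203 and 319 in zone II, and 125, 103, 99.3 and 137 in zone III. Among the 9 genes it alone had its lowest mean in zone III, below every array of the other zones, while zones I and II overlapped through array D of zone II. It fell 3.05-fold from zone I to zone III (log2 difference −1.61 ± 0.19 SE, limma adjusted p = 3.02e-05) and 1.94-fold from zone II to zone III (−0.96 ± 0.19, adjusted p = 0.00121). The fall from zone I to zone II was the smallest of the 9, at 1.57-fold (−0.65 ± 0.19, limma adjusted p = 0.0179). That first step is less firm than the rest: it was lost with the arrays centred on their median (−0.47, adjusted p = 0.0606), without zone I array A (−0.56, adjusted p = 0.0534), without zone I array C (−0.59, adjusted p = 0.0502), without zone II array B (−0.58, adjusted p = 0.0512) and without array A of every zone (−0.51, adjusted p = 0.13), and within the 3 groups of arrays that shared a hybridization time the differences were −0.83, −1.03 and 0.11.

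Emilin-1 is a glycoprotein at the interface of elastin and microfibrils that also restrains the maturation of TGF-beta. Emilin1 (1416414_at) read 673, 1123, 604 and 497 in zone I, 425, 332, 258 and 284 in zone II, and 484, 380.0, 318 and 336 in zone III. Array B of zone I was the highest, and all 4 arrays of zone I lay above those of zones II and III, which overlapped. The signal was 2.16-fold lower in zone II than in zone I (log2 difference −1.11 ± 0.24 SE, limma adjusted p = 0.00332) and 1.84-fold lower in zone III than in zone I (−0.88 ± 0.24, adjusted p = 0.0116). Zone III minus zone II gave 0.23 ± 0.24 (95% confidence interval −0.30 to 0.76, limma adjusted p = 0.46), and −0.01 with median centring. The second probe set gave −1.03 ± 0.27 and −0.92 ± 0.27 against zone I and passed in both.

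**Figure D3:**
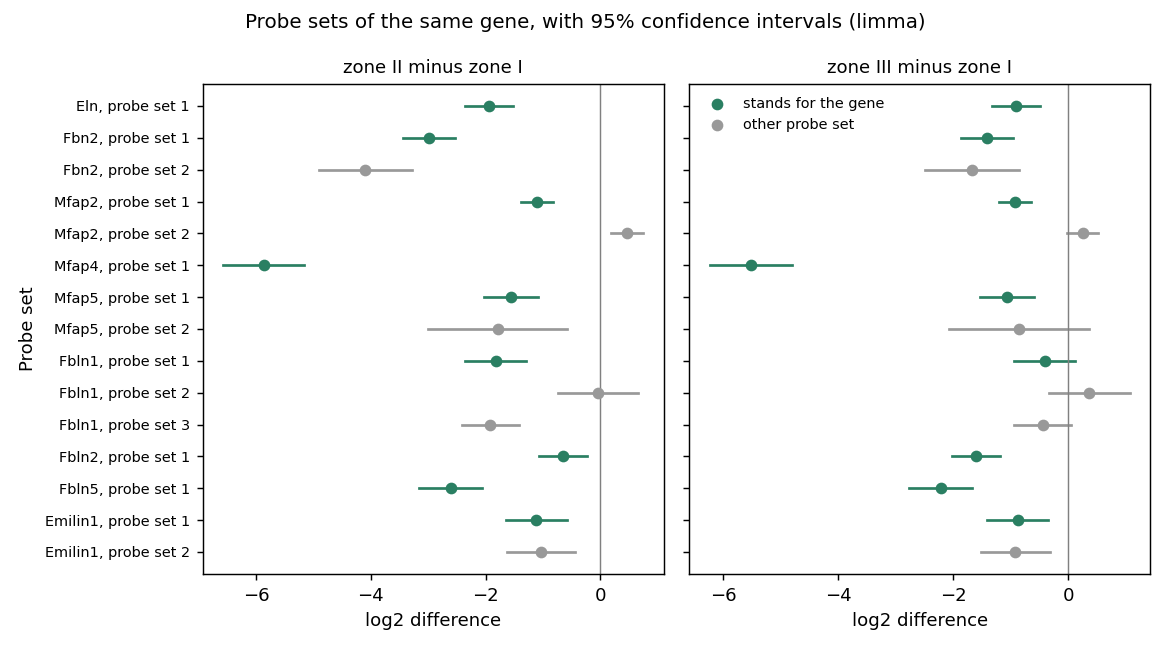
Log2 differences of zone II minus zone I (left) and zone III minus zone I (right) for the 15 probe sets of the 9 genes that passed the limit of 50, with 95% confidence intervals from limma, green for the probe set that stands for the gene and grey for the others. The second probe set of Mfap2 lies right of 0 in the left panel at 0.47, and the dim probe set of Fbln1 lies at −0.05.

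Of the 15 probe sets that passed the limit, 6 belong to a gene with another probe set standing for it, and only that of Mfap2 was called in the opposite direction. The hybridization times in the array records split the arrays into 3 groups, each with all 3 zones. Within these groups the sign of zone II minus zone I was negative in all 3 for 8 of the 9 genes, Fbln2 excepted, and that of zone III minus zone I was the same in all 3 for all 9. For zone III minus zone II it was the same in all 3 for 7, with Mfap2 (−0.01, 0.26 and 0.14) and Mfap4 (1.19, −0.21 and 0.15) excepted.

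The genes whose course over the 12 arrays lay closest to each of the 9 were picked from 11847 genes by the root mean square difference of log2 signals, each gene centred on its own mean. The closest to Eln were Thra, a thyroid hormone receptor (0.18), and Stc1, stanniocalcin-1 (0.21). For Fbn2 the closest was Postn, periostin, a matrix protein of perichondrium and periosteum (0.25), and for Fbln1 it was Antxr1, a collagen-binding receptor (0.20). For Fbln5 it was Ptn, the growth factor pleiotrophin (0.282), followed by Otor (0.289) and the osteoglycin gene Ogn (0.294). For Mfap2 the closest were Wdr90 (0.13) and the sulphatase gene Sulf2 (0.13), for Mfap5 Tspyl3 (0.22), for Fbln2 the receptor gene Epha7 (0.19), and for Emilin1 Epb41l4b (0.16). The nearest gene to Mfap4, Fbp2, lay farther off (0.77). Among the 9 themselves the closest pair was Eln and Mfap5 (0.34), and every pair with Mfap4 differed by at least 1.58.

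Other genes of elastic fibres and microfibrils were taken from a list by role. Of 45 listed genes, 40 had a probe set of their own and 36 passed the limit of 50. From zone I to zone II 22 of the 36 fell, 4 rose and 10 did not pass, where 22.2% of all probe sets tested were called lower and 15.1% higher. From zone II to zone III 22 rose, 6 fell and 8 did not pass, against 28.5% higher and 20.9% lower. In zone III 12 were higher than in zone I, 12 were lower and 12 did not pass, against 21.0% and 19.0%. The median log2 differences of the 36 were −0.94, 0.99 and −0.28 in the 3 comparisons, where all probe sets gave −0.07, 0.09 and 0.01.

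The measured lysyl oxidases, enzymes that cross-link elastin and collagen, did not move as 1 group. Loxl2 had no probe set of its own and is not among them. Lox had means of 780 ± 157 for zone I, 344 ± 131 for zone II and 2356 ± 256 for zone III (SD, n = 4), so that its zone III signal was 3.05-fold above that of zone I (log2 difference 1.61 ± 0.22 SE, limma adjusted p = 1.00e-04) while the signal of Eln was below. Its fall from zone I to zone II (−1.23 ± 0.22) was seen with 2 of its 3 probe sets, and the dimmest one gave 0.13 ± 0.21. Loxl1, the oxidase that acts with fibulin-5 on elastin, read 729, 569.7, 541 and 383 in zone I, 132, 77.8, 96.2 and 101 in zone II and 299.6, 269.96, 277 and 249 in zone III, with no overlap between zones and the same order of zones as Eln (−2.44 ± 0.20 for zone II minus zone I, limma adjusted p = 1.97e-06). Loxl4 went the other way, with 42.3, 58.2, 41.8 and 82.3 in zone I, 544, 469, 786 and 744 in zone II and 656, 709, 683 and 832 in zone III, which is an 11.5-fold rise from zone I to zone II (3.53 ± 0.23, limma adjusted p = 3.24e-07). Loxl3 gave −0.03 ± 0.14 at that step and fell 4.03-fold from zone II to zone III (−2.01 ± 0.14, limma adjusted p = 2.79e-07).

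The latent TGF-beta binding proteins dock on microfibrils and hold TGF-beta in the matrix. Of 4, Ltbp1, Ltbp2 and Ltbp3 fell at the step into zone II, and the same 3 rose at the step into zone III. Of all probe sets tested, 22.2% were called lower at the first step and 28.5% higher at the second. Ltbp2 reached a mean of 50 in zone I only, with means of 136, 22.0 and 42.4 in zones I, II and III. Ltbp1 had 269 ± 50.1 for zone I, 40.9 ± 14.5 for zone II and 187 ± 26.3 for zone III, and Ltbp3 had 1619 ± 318, 424 ± 79.2 and 1319 ± 104 (SD, n = 4). Zones III and I gave −0.51 ± 0.24 for Ltbp1 (limma adjusted p = 0.12) and −0.28 ± 0.17 for Ltbp3 (adjusted p = 0.21), while Ltbp2 was lower in zone III than in zone I (−1.67 ± 0.29, adjusted p = 6.25e-04). Ltbp4 passed at no step.

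All 6 measured genes of fibrillin-binding ADAMTS-like and ADAMTS proteins fell from zone I to zone II, by 0.86 (Thsd4) to 2.35 (Adamtsl3) on the log2 scale. At this step 22.2% of all probe sets tested were called lower. Adamtsl4 reached a mean of 50 in zone I only, so the limit kept it through the zone in which it was high. From zone II to zone III 2 of them rose, Adamtsl1 (1.63 ± 0.18) and Adamts10 (0.89 ± 0.19), and Adamtsl4 fell (−0.95 ± 0.26), though it lay below 50 on every array of both zones. The 4 relatives of emilin-1 fell at the first step as well, and Emilin3, Mmrn1 and Mmrn2 rose at the second, where 28.5% of all probe sets tested were called higher. Emilin3 had 570.2 ± 72.4 for zone I, 152 ± 31.0 for zone II and 724 ± 57.6 for zone III, and Mmrn1 and Mmrn2, emilin relatives of vessels and platelets, were 3.83-fold and 3.38-fold higher in zone III than in zone I.

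The measured relatives of the fibulins did not share 1 course, and Efemp2, fibulin-4, had no probe set. Efemp1, fibulin-3, read 182, 197, 219 and 259.98 in zone I, 326, 307, 602 and 507 in zone II and 27.4, 26.5, 42.8 and 41.4 in zone III, highest in zone II and lowest in zone III with no overlap between zones. It was 1.97-fold higher in zone II than in zone I (log2 difference 0.98 ± 0.24 SE, limma adjusted p = 0.00696) and fell from zone II to zone III, where every array lay below 50 (−3.63 ± 0.24, adjusted p = 1.76e-07). Fbln7 rose 1.82-fold from zone I to zone II (limma adjusted p = 0.0403) and fell 6.78-fold from zone II to zone III (adjusted p = 9.89e-06). Hmcn1, hemicentin-1, followed the order of Eln, with 300.5 ± 52.4, 59.0 ± 11.6 and 117 ± 19.0 in zones I, II and III.

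Of 7 genes of elastin-binding proteins and receptors 6 rose at the step into zone III and 1, Itga8, fell. At this step 28.5% of all probe sets tested were called higher and 20.9% lower. Itgb3, an integrin subunit, read 28.0, 40.7, 59.8 and 32.3 in zone I, 64.4, 66.3, 46.0 and 35.6 in zone II and 1342, 1151, 1231 and 1283 in zone III. Zone III stood far above both other zones (log2 difference 4.60 ± 0.24 SE over zone II and 5.02 ± 0.24 over zone I, limma adjusted p = 3.50e-08 and 1.74e-08). Glb1, whose splice form is the elastin-binding protein, and its partners Neu1 and Ctsa rose by 1.40 ± 0.17, 1.45 ± 0.19 and 0.98 ± 0.16 on the log2 scale. Of 6 proteases that can cleave elastin 5 rose from zone II to zone III, among them Ctsk by 3.85 ± 0.20, Mmp9 by 3.63 ± 0.36 and Ctss by 3.58 ± 0.41, and Mmp2 gave 0.14 ± 0.15. Mmp9 rose at the step into zone II too (2.42 ± 0.36), where the 5 others fell, Ctss by 2.79 ± 0.41. At the step into zone II 22.2% of all probe sets tested were called lower and 15.1% higher. Macrophage elastase, Mmp12, stayed below the limit, with means of 3.03 for zone I, 2.38 for zone II and 3.09 for zone III. Itgb3, Mmp9 and Ctsk also belong to the list of 8 measured osteoclast markers. All 8, with Itgb3, Mmp9 and Ctsk counted among them, rose from zone II to zone III, where 28.5% of all probe sets tested were called higher.

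**Figure D4:**
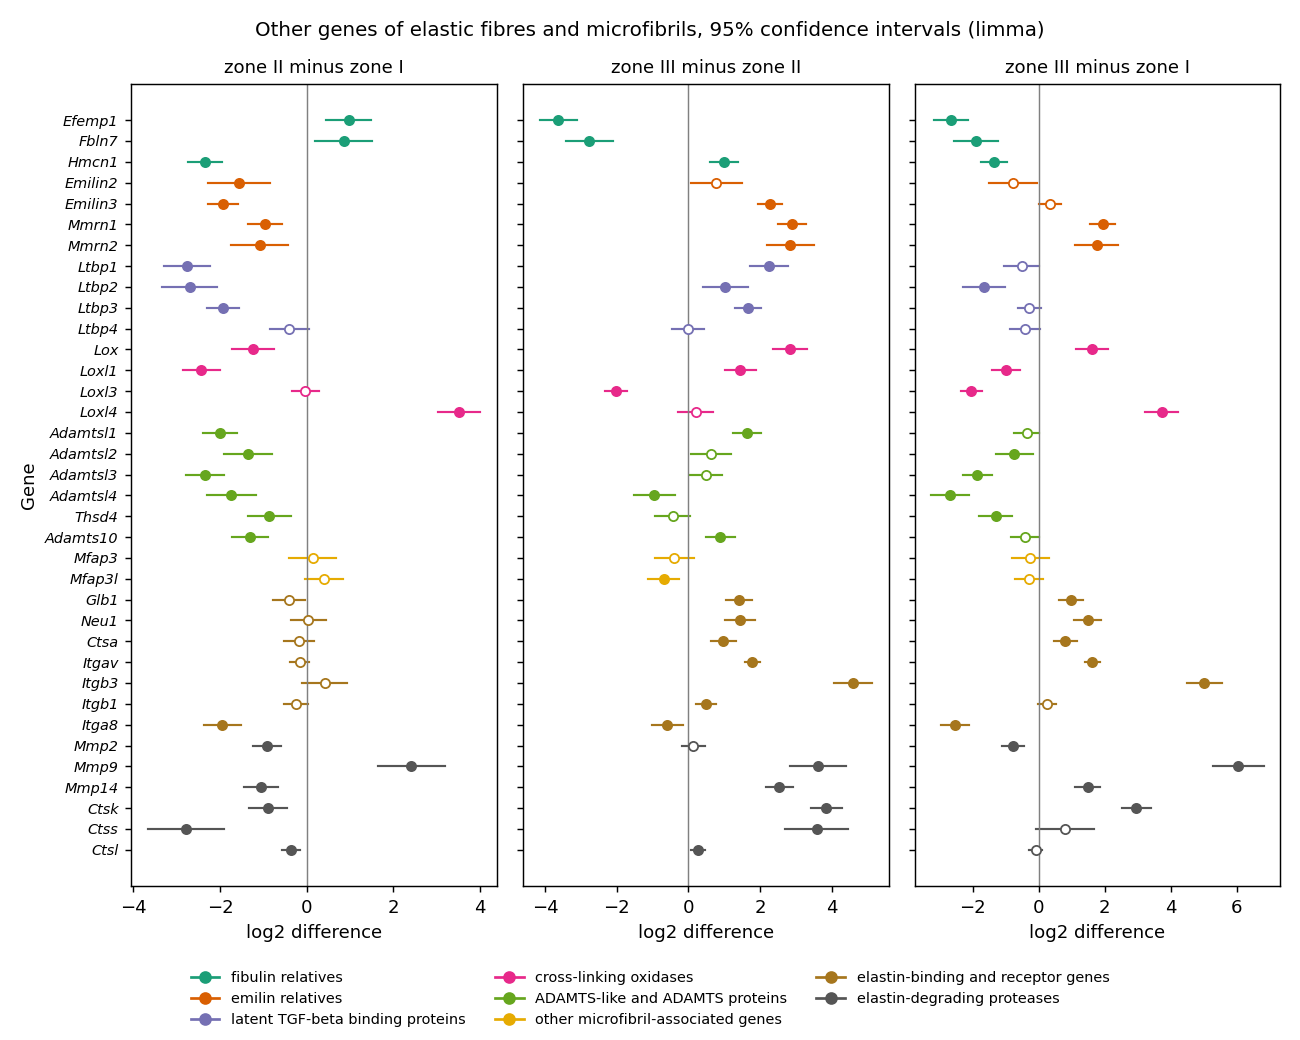
Log2 differences of 36 other genes of elastic fibres and microfibrils (rows, coloured by role) in 3 panels, II minus I, then III minus II, then III minus I, with 95% confidence intervals from limma, filled where the adjusted p is under 0.05. In the first panel 22 filled points lie left of 0 and 4 right, and in the second 22 lie right of 0 and 6 left.

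Markers of other cells moved beside these genes. Of all probe sets tested, 15.1% were called higher and 22.2% lower at the step into zone II. At the step into zone III it was 28.5% higher and 20.9% lower, and between zones III and I 21.0% and 19.0%. Of 14 genes of perichondrium, tendon and fibrous tissue, 12 fell and none rose at the step into zone II, 9 rose and 1 fell from zone II to zone III, and 3 were higher and 7 lower in zone III than in zone I. The 3 higher were Col1a1, Twist1 and Tnc, and the 7 lower were Col3a1, Postn, Scx, Tnmd, Thbs4, Kera and Dpt. The summed signal of the 14 was 15731 to 21053 for zone I, 6882 to 10750.0 for zone II and 15413 to 17962 for zone III. Its largest parts in zone III were Col1a2 and Col1a1, with means of 3924 and 3792. Thbs4 had means of 311, 18.9 and 5.89 in zones I, II and III, and Tnmd 640, 88.8 and 181. All 10 endothelial markers fell at the step into zone II and all 10 rose at the step into zone III, with summed signals of 860 to 1486, 329 to 645 and 2937 to 3283 in zones I, II and III, and 8 of them were higher in zone III than in zone I, where 8 of the 9 elastic fibre genes were lower. Of 6 macrophage markers 3 fell and none rose at the step into zone II, and all 6 rose at the step into zone III. Their sums were 921 to 1643, 523 to 849 and 4108 to 4947 in zones I, II and III. Of 6 osteoblast markers 5 rose at each step, with sums of 171 to 308, 3458 to 5098 and 8224 to 9207. Among markers of smooth muscle cells and pericytes, Myh11, Cnn1 and Lmod1 lay below 50 in every zone. Of the 6 others 4 fell at the step into zone II, and 3 rose and 1 fell at the step into zone III. In zone III 1 was higher and 3 were lower than in zone I. The higher one was Pdgfrb, a pericyte receptor, at 6.62-fold. The lower ones were Tagln (log2 difference −2.33, below 50 in zones II and III), Rgs5 (−1.49) and Cspg4 (−1.05), while Acta2 and Mcam did not pass. The summed signals of the 6 were 1853 to 2854 for zone I, 1107 to 1740 for zone II and 2831 to 3237 for zone III. Of 7 skeletal muscle markers, 1 fell (Myh3, log2 difference −3.00) and 1 rose (Tnni1, 3.02) at the step into zone II. Their summed signals were 306 to 1094 for zone I, 698 to 832 for zone II and 401 to 739 for zone III. Tnni1 alone read 376, 379, 628 and 498 on the arrays of zone II. In zone I the sum of 1094 belonged to array A alone, the other arrays having 306 to 502, and the highest perichondrium, tendon and fibrous tissue sum of each zone was also that of array A. The highest osteoclast and macrophage sums of each zone were those of array A too, as were the highest endothelial sums of zones I and II. Chondrocyte sums of zones I and III were highest on array C. On array A 7 of the 9 elastic fibre genes had their highest signal of zone I, 7 of zone II and 6 of zone III. The share of all probe sets with their highest signal on array A was not taken. Without array A of every zone, an alternative chosen after seeing the data, 8 of the 9 fell from zone I to zone II (Fbln2 did not pass), 3 rose and 1 fell from zone II to zone III, and 8 were lower in zone III than in zone I. The part of perichondrium, vessels, muscle, osteoclasts and macrophages in the differences of the elastic fibre genes was not tested.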

How the data were processed

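The authors deposited linear signal intensities, 1 value per probe set and array of 45101 probe sets, already scaled to 1 trimmed mean (2% trimmed at each end). The paper names GCRMA and RMA, and the processing notes RMA, which such values do not look like, so the algorithm behind them stays unknown here. The members and gene lists were chosen with earlier results of these data known. Log2 signals of 22255 probe sets whose mean reached 50 in any zone, controls left out, were fitted over 12 arrays with limma 3.58.1 in R 4.3.3 (lmFit, eBayes), the later zone minus the earlier, with p-values adjusted by Benjamini-Hochberg over all probe sets in each comparison and called under 0.05. All 10 members are named, and of the listed pathway genes first the 5 largest called differences per comparison. Genes were named by the array annotation, positions and promoters by RefSeq. The fit was tested on simulated data. Alternatives changed the filter, scaling, offset, fit, block, probe set choice and single arrays. The number of arrays limits the precision.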

Additional observations from a re-analysis of the deposited data

Results flagged for a closer look

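The signal of Fbln2 on array D of zone II was 319, far from the 190.5 to 202.9 of the other 3 arrays of that zone. Of 27 groups of 4 arrays examined, 9 genes in 3 zones, this was the 1 group with a distant array, and chance gives about 1 in 20. Without this array Fbln2 in zone II was −0.82 ± 0.17 SE below zone I on the log2 scale (limma adjusted p = 0.00309), against −0.65 with it.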

How the results depend on the processing

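Over 25 alternatives and 27 differences, 9 genes in 3 comparisons, 652 values kept their direction and their side of the threshold, 8 lost the call, 8 gained it and 4 changed sign. The count of genes that fell was 9 from zone I to zone II in the chosen fit and 8 or 9 in every alternative, and 8 between zones I and III and 7 or 8 in every alternative, with 8 and 7 of 8 genes where the limit was a signal of 100, which leaves Mfap5 out. The calls lost were those of Fbln2 from zone I to II, also with no filter (−0.65, limma adjusted p = 0.0551), and of Fbln1 at 2 steps with the median of its probe sets. From zone II to zone III the number of genes that rose was 3, with 2 for the median of probe sets. It was 4 with array weights (Mfap5 gained, 0.56, limma adjusted p = 0.0381), after blocking on hybridization time and without zone II array B (Mfap5 gained in both), and 7 after centring on ribosomal protein genes, where the median of all probe sets moved to 0.49 and Mfap2, Mfap4, Mfap5 and Fbln5 gave 0.57, 0.74, 0.89 and 0.78. The differences that changed sign were all between zones II and III and had not passed: Mfap2 with median centring (−0.0682) and with the median of its probe sets (−0.0227), Mfap4 without zone III array A (leaving out single arrays gave −0.0143 to 0.5739) and Emilin1 with median centring (−0.0113). The letters A to D of the arrays are not said to mark litters, and of 12 same-letter pairs 8 had correlated deviations over 0.1 (range −0.13 to 0.26), with 7 of 12 arrays closest to one of their own letter. With the letter as a replicate block the number of genes that fell from zone I to II was 9 and the number that rose from zone II to III 4, Fbln5 being gained (0.39, limma adjusted p = 0.0302). Median centring moved the median difference of all probe sets to 0.11, −0.15 and −0.05 in zone II minus I, III minus II and III minus I, against −0.07, 0.09 and 0.01 as scaled by the authors. In zone III minus zone I the calls split into 26.6% higher and 12.6% lower after centring on ribosomal protein genes, against 21.0% and 19.0%.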
